A study of Bos indicus with 12 samples.

Results

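The genes described here encode the subunits, activators and assembly chaperones of the proteasome, read in blood RNA of 12 female Bos indicus cows. They were chosen by name: 47 of the 26229 gene identifiers in the count table carry a RefSeq symbol that begins with PSMA to PSMG followed by a digit. PSMC3IP and PSME3IP1 match by name alone, since they are binding partners of PSMC3 and PSME3 and not parts of the particle. Past the filter on low counts were 45 of the 47 symbols, all but PSMA8 and PSMB11, so that counts over 45 genes hold 43 proteasome genes and both binding partners. The symbols PSMB1, PSMC2 and PSMD13 belong to identifiers not analysed here. The cows were Gir or Shweta Kapila, indigenous Indian breeds, in lactation 2 or 3, and the lactation record placed 3 cows of each breed in a high-yielding and 3 in a low-yielding class, set within the breed. The labels name no treatment apart from the yield class, and no source used here gives milk yields or ages. A library stands for 1 cow, so p-values measure the spread between cows. The main fit estimates that spread once per gene over the 4 groups, and not for each breed.

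The proteasome is the cell's main protease for proteins tagged with ubiquitin. Its 20S core is a barrel of alpha rings, which gate the entry, around beta rings, in which PSMB5, PSMB6 and PSMB7 carry the active sites. A 19S cap of PSMC ATPases and PSMD subunits binds, unfolds and feeds in the substrate. In cells exposed to interferon gamma, and constitutively in many leukocytes, PSMB8, PSMB9 and PSMB10 take the place of PSMB5, PSMB6 and PSMB7 in newly built particles, and PSME1 and PSME2 form the 11S activator. That immunoproteasome is known for making peptides for class I antigen presentation.

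Library totals ran from 14.2 to 27.2 mega-counts (M), and the 3 libraries over 22 M were Shweta Kapila high 3, low 1 and low 2. Those 3 also held 9.00 to 13.1% of their counts on 37 unnamed identifiers of 7 or 8 digits, against 4.54 to 8.70% in the other 9 libraries. Proteasome genes took 0.361 to 0.572% of the counts of a library. The labels name mononuclear cells as well as a kit that takes whole blood. Markers listed for neutrophils, cells that mononuclear preparations should largely lack, summed to 1323 to 4320 CPM (counts per mega-count of the library total, after TMM scaling). Past the filter were 8 of 12 of them, and CSF3R is also on the monocyte list used here. In Gir high 2, the highest sum, CSF3R was at 2147, S100A9 at 1183 and CXCR2 at 782 CPM. MPO, LTF and MMP9 were at 4.51, 0.0543 and 22.1 CPM in that cow. The sum by itself does not tell neutrophils from monocytes. T cell markers summed to 2575 to 5820 CPM with 12 of 12 past the filter. In the edgeR quasi-likelihood test none of 15420 genes passed an adjusted p of 0.05 in any of 6 comparisons, so the background share of calls was 0%. On simulated counts of 15162 genes for the Gir comparison that test called 1 of 100 genes changed 2-fold and 54 of 98 changed 4-fold.

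None of the 45 genes tested passed an adjusted p of 0.05 in any comparison. The counts below at an unadjusted p under 0.05, and of groups that do not overlap, therefore describe the cows. None of the 45 was under that p for yield in Gir (1.89% of all genes were), in Shweta Kapila (6.98%), over both breeds (4.13%) or for the difference between those yield effects (3.81%). For breed 7 of 45 were, all of them with Gir lower, where 9.57% of all genes were under that p and 5.79% with Gir lower. The test across the 4 groups had 2 of 45, PSMA3 and PSMA7, against 6.32% of all genes. With edgeR fitted to 1 breed alone, 0 of 45 were under an unadjusted p of 0.05 for yield in either breed. The shares over all genes were then 5.23% in Gir and 2.98% in Shweta Kapila. DESeq2 called none of the 45 in any comparison. Its share of calls over all genes was 1.26% for breed and 1.35% across the 4 groups. For yield in Shweta Kapila it was 0.402%, and in the other comparisons at most 0.0584%. A single cow decided the Shweta Kapila count: without low 3 it was 14 of 45 and without high 3 it was 8 of 45, beside 31.7% and 18.8% of all genes, and no proteasome gene passed an adjusted p of 0.05 in either case. PSMA7, PSMB4, PSMB6, PSMB8, PSMB9, PSMB10, PSMD6 and PSMD8 were among the 14 and were the 8. In limma-voom with sample weights, which gave Shweta Kapila low 3 the lowest weight of 0.18 and low 2 the highest of 6.62, 12 of 45 genes (26.7%) passed an adjusted p of 0.05 for yield in Shweta Kapila. The same held for 25.3% of all genes.

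**Figure D1:**
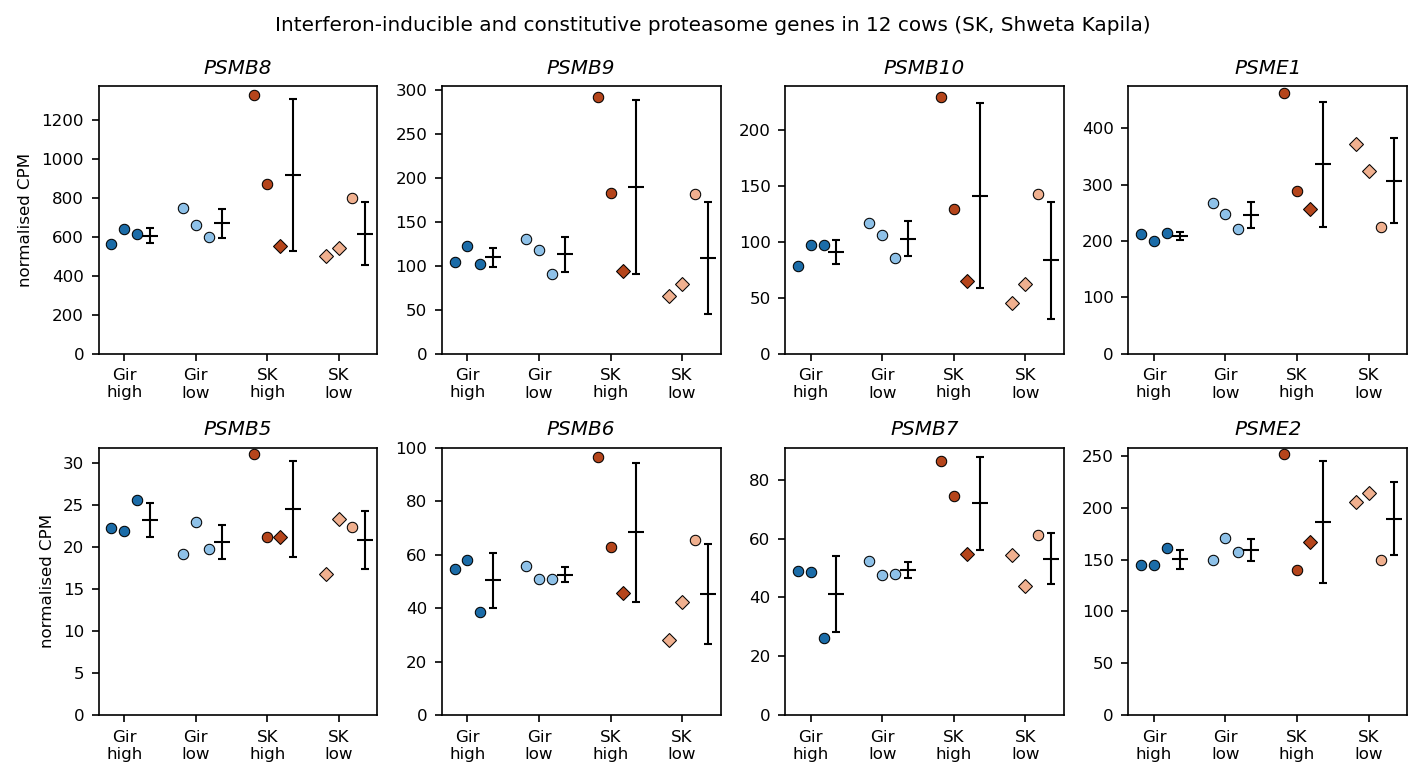
Normalised CPM (vertical axes, from 0) of the interferon-inducible genes PSMB8, PSMB9, PSMB10, PSME1 and PSME2 and the constitutive PSMB5, PSMB6 and PSMB7 in 12 cows of 4 groups. Each point is a cow, diamonds are libraries over 22 M, and bars are the mean ± SD of 3 cows. Gir high 3 lies below the other 5 Gir cows for PSMB6 and PSMB7, the 3 diamonds of PSMB8, PSMB9 and PSMB10 lie below the other 3 Shweta Kapila cows, and those of PSME1 and PSME2 do not.

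PSMB8, PSMB9 and PSMB10, the catalytic subunits of the immunoproteasome, spanned a narrow range in Gir and a wide one in Shweta Kapila. PSMB8, which has the chymotrypsin-like activity, stood at 565, 642 and 612 CPM in high-yielding Gir and at 749, 659 and 600 CPM in low-yielding Gir. In Shweta Kapila it stood at 1331, 871 and 555 CPM in the high-yielding and at 501, 542 and 800 CPM in the low-yielding cows. The yield classes overlapped in both breeds, and the cow highest of all, Shweta Kapila high 1, was more than the whole Gir range above the next. High minus low was −0.14 ± 0.30 (log2 fold change ± SE, adjusted p = 1) in Gir and 0.58 ± 0.30 in Shweta Kapila (edgeR adjusted p = 0.655). The difference between these effects was −0.72 ± 0.42 (edgeR adjusted p = 0.955).

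PSMB9, the subunit encoded beside the TAP1 peptide transporter gene, gave the 6 Shweta Kapila cows the same order as PSMB8. It measured 104, 122 and 103 CPM in high-yielding and 130, 118 and 91.1 CPM in low-yielding Gir cows. Shweta Kapila values were 293, 183 and 94.1 CPM for high and 65.2, 78.8 and 182 CPM for low yield. Again the classes overlapped, through Shweta Kapila high 3 and low 3. The log2 difference of high minus low yield was −0.04 ± 0.42 in Gir and 0.81 ± 0.42 in Shweta Kapila (edgeR adjusted p = 1 and 0.655).

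PSMB10, the subunit with trypsin-like activity, was at 78.0, 97.0 and 97.2 CPM in high-yielding and 116, 106 and 85.6 CPM in low-yielding Gir. The Shweta Kapila cows had 229, 130 and 64.6 CPM in the high and 44.7, 62.4 and 142 CPM in the low class, a 5.12-fold range over all 12 cows. Low-yielding Shweta Kapila 3 lay with the high class and high-yielding Shweta Kapila 3 with the low class, as for PSMB8 and PSMB9. Its log2 yield difference was −0.18 ± 0.45 in Gir and 0.76 ± 0.45 in Shweta Kapila (edgeR adjusted p = 1 and 0.655). Leaving out a single Shweta Kapila cow moved these differences by over 1.5 times. Without high 1 they were 0.23 for PSMB8, 0.37 for PSMB9 and 0.24 for PSMB10, without low 1 PSMB10 was 0.45, and without low 3 PSMB9 and PSMB10 were both 1.40. No adjusted p of these edgeR fits was under 0.05. Fewer cells that express these genes and less RNA per cell cannot be told apart in such bulk samples.

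Library size moved with these values in Shweta Kapila. All 3 libraries over 22 M were below the other 3 Shweta Kapila libraries for each of PSMB8, PSMB9 and PSMB10, and 2 of those 3 large libraries are of the low class. The yield difference within each size class rests on 1 cow against 2. Among the large libraries PSMB8 was 555 CPM in the high-yielding cow and averaged 522 CPM in the low-yielding pair, and among the others it averaged 1101 CPM in the high-yielding pair and was 800 CPM in the low-yielding cow. PSMB9 (log2 differences of 0.39 and 0.39) and PSMB10 (0.27 and 0.33) were likewise higher in the high class within both sizes, and PSMB8 differed by 0.09 and 0.46. The size class was also set as a term in the fit, a choice made after the data were seen. The count of proteasome genes under an unadjusted p of 0.05 in this comparison was then also 0, beside 6.70% of all genes. When the counts share of unnamed identifiers entered as a covariate, PSMB9 and PSMB10 took the opposite sign, at −0.05 and −0.13. Summed cell markers differed between the yield classes and did not order the cows as the trio did, though some single markers did so. T cell markers ran from 4428 to 5820 CPM in high-yielding and 2616 to 4104 CPM in low-yielding Shweta Kapila. Cytotoxic and NK markers, 8 of 12 past the filter and none at 0 in every cow, ran from 1101 to 2026 and from 654 to 1036 CPM. Low 3, one of the upper 3 cows of the breed for PSMB8, PSMB9 and PSMB10, had the lowest sum of both lists, and high 3, one of the lower 3, had T cell markers above every low-yielding cow. B cell markers, 10 of 12 past the filter and none at 0 in every cow, summed to 847 to 958 CPM in the high-yielding cows and to 815, 1379 and 3244 CPM in low 1, 2 and 3. Of these 10 genes 9 had lower means in high-yielding Shweta Kapila and 5 were under an unadjusted p of 0.05, all lower. Of T cell and cytotoxic markers, NCR3 and BCL11B gave the Shweta Kapila cows the order of PSMB8 and PSMB9, and CD5 that of PSMB10. GP9 of the platelet list and ALPL of the neutrophil list also gave the order of PSMB8 and PSMB9, so it was not particular to lymphocyte markers. The 3 large libraries were all lower than the others for CD5, BCL11B, NCR3 and TBX21 and all higher for TCF7 and IL7R. They overlapped the others for 8 of 12 T cell and 6 of 8 cytotoxic markers. The part of library size or of cell make-up in the differences was not tested.

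PSMB5, PSMB6 and PSMB7, the constitutive counterparts, also had higher means in high-yielding Shweta Kapila, with the classes overlapping. PSMB5, with the chymotrypsin-like activity, was at 22.2, 22 and 25.6 CPM in high-yielding and 19.1, 23.0 and 19.7 CPM in low-yielding Gir. In Shweta Kapila it was at 31.1, 21.2 and 21.3 CPM for high and 16.9, 23.3 and 22.4 CPM for low yield, with all classes overlapping. PSMB6, with the caspase-like activity, had 54.8, 57.9 and 38.7 CPM in high-yielding and 55.9, 50.8 and 50.9 CPM in low-yielding Gir. It had 96.6, 62.9 and 45.5 CPM in high-yielding and 28, 42.4 and 65.4 CPM in low-yielding Shweta Kapila. The order of the 6 Shweta Kapila cows for PSMB6 was that for PSMB9, except that high 2 and low 3 changed places. PSMB7, with the trypsin-like activity, was at 49.0, 48.5 and 26.4 CPM and at 52.5, 47.5 and 47.9 CPM in high-yielding and low-yielding Gir, and at 86.5, 74.7 and 54.9 CPM and 54.5, 43.9 and 61.1 CPM in the Shweta Kapila classes. The log2 yield differences in Shweta Kapila were 0.23 ± 0.24, 0.59 ± 0.33 and 0.44 ± 0.27 for PSMB5, PSMB6 and PSMB7 (edgeR adjusted p = 0.719, 0.655 and 0.655).

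The exchange of subunits was described per cow as the mean log2 CPM of PSMB8, PSMB9 and PSMB10 minus that of PSMB5, PSMB6 and PSMB7. Transcript lengths are not used here, so its size has no meaning by itself and only its differences between cows do. It was 2.08, 2.31 and 2.62 in high-yielding Gir and 2.55, 2.40 and 2.20 in low-yielding Gir. In Shweta Kapila it was 2.81, 2.56 and 1.99 in the high and 1.94, 1.98 and 2.62 in the low class. The classes overlapped in both breeds, and the 3 large libraries were the lowest of the 12. High minus low was −0.04 in Gir and 0.28 in Shweta Kapila, below the SD between cows of a group of 0.32. Set against the mean of the 28 constitutive 20S and 19S subunits instead, the catalytic trio was at 2.28, 1.87 and 1.12 in high-yielding and 0.69, 0.93 and 1.98 in low-yielding Shweta Kapila. The 6 Gir cows ran from 1.24 to 1.74 on that measure.

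**Figure D2:**
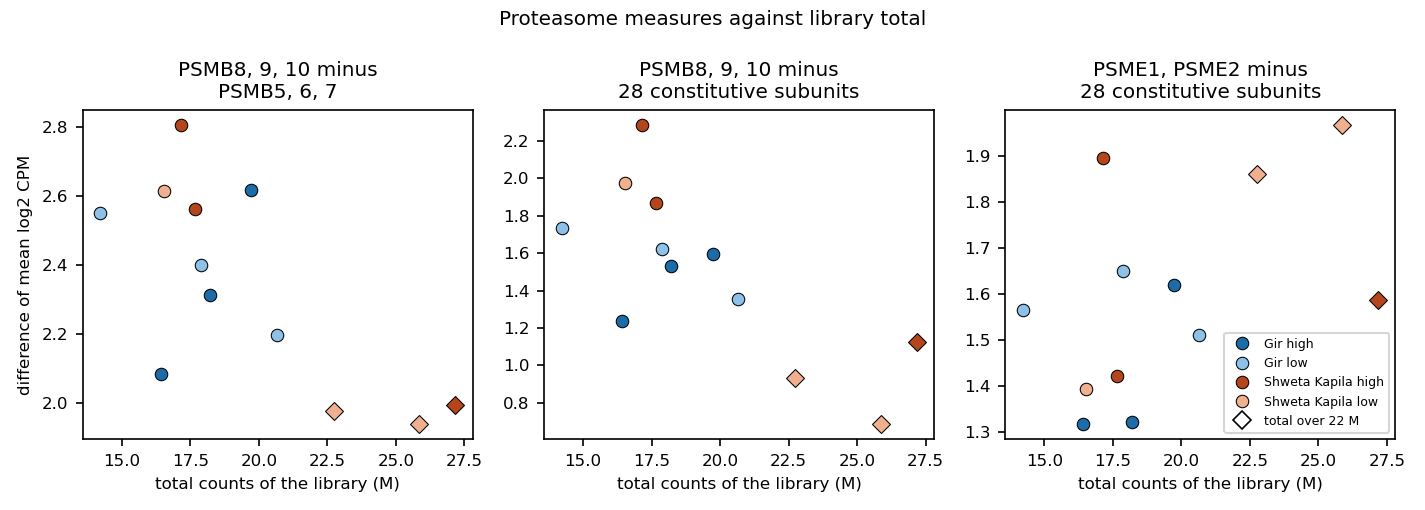
Within-library differences of mean log2 CPM (vertical axes) against the total counts of the library in M (horizontal axes), 1 point per cow, coloured by group, with diamonds for libraries over 22 M. The catalytic trio against its counterparts or against 28 constitutive subunits is lowest in the 3 diamonds, while PSME1 and PSME2 against the same subunits run from 1.59 to 1.97 there and from 1.32 to 1.89 in the other 9 cows.

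PSME1 and PSME2, the subunits of the 11S activator, did not follow the catalytic trio in Shweta Kapila. PSME1 was at 212, 200 and 214 CPM in high-yielding and 267, 248 and 221 CPM in low-yielding Gir. It was at 462, 289 and 256 CPM in high-yielding and 372, 324 and 225 CPM in low-yielding Shweta Kapila. PSME1 in Gir was the only gene of the 45 whose yield classes did not overlap, with high below low, where 10.2% of all genes did not overlap and 5.06% in that direction. Its log2 yield difference in Gir was −0.23 ± 0.26 (edgeR adjusted p = 1). In Shweta Kapila the classes overlapped, at 0.13 ± 0.26 (edgeR adjusted p = 0.855). Its log2 difference of high minus low was −0.44 within the large libraries and 0.74 within the others.

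PSME2 had 145, 145 and 161 CPM in high-yielding and 150, 171 and 157 CPM in low-yielding Gir. Its values were 252, 140 and 167 CPM in high-yielding and 205, 214 and 149 CPM in low-yielding Shweta Kapila. The classes overlapped in both breeds. The log2 yield differences were −0.08 ± 0.24 and −0.02 ± 0.24 (edgeR adjusted p = 1 and 0.974). PSME1 and PSME2 minus the 28 constitutive subunits gave 1.89, 1.42 and 1.59 in high-yielding and 1.97, 1.86 and 1.39 in low-yielding Shweta Kapila, and 1.32 to 1.65 in Gir. Low-yielding Shweta Kapila 1 and 2 were thus the lowest pair for the trio and 2 of the 3 highest for the 11S genes. RefSeq places PSME1 and PSME2 on either side of EMC9, and PSMB8 and PSMB9 on either side of TAP1.

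All 5 interferon-inducible genes were on the lower side for high-yielding Gir, though PSMB9 was on the higher side without Gir high 3 or Gir low 1 (up to 0.07) and with the library total as a covariate (0.07). Of the 28 constitutive subunits 18 were on the higher side. The median log2 difference was −0.14 for those 5 and 0.03 for the 28, beside −0.02 over all genes, and 47.4% of all genes were on the higher side. In Shweta Kapila 4 of the 5 and 19 of the 28 were on the higher side, with medians of 0.58 and 0.09 beside −0.02 over all genes, of which 48.3% were on the higher side. For yield in Gir 11 of 12 T cell, 7 of 8 cytotoxic and 8 of 10 B cell markers were on the lower side. On the higher side were 9 of 9 monocyte, 6 of 8 neutrophil, 5 of 7 dendritic cell, 5 of 7 plasma cell, 4 of 7 platelet and 3 of 5 erythroid markers. The Gir classes did not overlap for 6 of the 9 monocyte markers, beside 10.2% of all genes. The part of cell make-up in the Gir values was not tested.

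The other activators and the inhibitor gave small differences. PSME3, which forms the nuclear activator, had 137, 143 and 165 CPM in high-yielding and 143, 128 and 153 CPM in low-yielding Gir, and 132, 106 and 144 CPM against 168, 149 and 143 CPM in Shweta Kapila. PSME4, the activator PA200, had 45.3, 44.2 and 45.1 CPM against 39.4, 46.1 and 47.0 CPM in Gir, and 32.1, 41.7 and 55.6 CPM against 70.9, 54.8 and 32.4 CPM in Shweta Kapila. Both were higher in the 3 large libraries than in the other 3 of that breed, the reverse of PSMB8, and their classes overlapped. Their log2 yield differences in Shweta Kapila were −0.27 ± 0.19 and −0.29 ± 0.29 (edgeR adjusted p = 0.661 and 0.716). PSMF1, the inhibitor PI31, had 107, 121 and 132 CPM against 116, 117 and 109 CPM in Gir, and 155, 109 and 97.0 CPM against 91.6, 85.8 and 128 CPM in Shweta Kapila. Its large libraries were the lower ones, and its log2 difference there was 0.24 ± 0.23 (edgeR adjusted p = 0.713).

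In the alpha ring, the gate of the 20S core, 7 of 7 tested genes had lower means in Gir than in Shweta Kapila, with a median log2 difference of −0.38, beside −0.04 over all genes, of which 45.1% were higher in Gir. Under an unadjusted p of 0.05 were 4 of the 7, PSMA2, PSMA3, PSMA6 and PSMA7. PSMA3 stood at 22.5, 22.8 and 12.5 CPM in high-yielding and 19.7, 18.4 and 28.4 CPM in low-yielding Gir, and at 25.9, 47.3 and 35.4 CPM and 43.4, 31.4 and 28.4 CPM in the Shweta Kapila classes. The breeds overlapped only through Gir low 3, which was above Shweta Kapila high 1 and level with low 3. Gir averaged 20.7 and Shweta Kapila 35.3 CPM, a log2 difference of −0.77 ± 0.23 (edgeR adjusted p = 0.316). PSMA7 had 111, 123 and 95.1 CPM and 120, 104 and 84.6 CPM in high-yielding and low-yielding Gir, and 247, 169 and 124 CPM and 105, 115 and 153 CPM in Shweta Kapila. Its large Shweta Kapila libraries lay close to the Gir range, and its log2 breed difference was −0.49 ± 0.19 (edgeR adjusted p = 0.447). PSMA2 had 29.8, 25.1 and 16 CPM and 24.4, 24.5 and 23.8 CPM in high-yielding and low-yielding Gir, and 35.2, 49.4 and 27.9 CPM and 33.8, 24.6 and 28.3 CPM in Shweta Kapila. PSMA6 ran from 72.4 to 95.7 CPM in Gir and from 79.0 to 139 CPM in Shweta Kapila. Both overlapped between breeds, with log2 differences of −0.46 ± 0.20 and −0.38 ± 0.16 (edgeR adjusted p = 0.491 for both). PSMA1, PSMA4 and PSMA5 differed by −0.34, −0.34 and −0.32.

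Outside the alpha ring the genes under an unadjusted p of 0.05 for breed were PSMB7, PSMC6 and PSME1. PSMC6, an ATPase of the 19S base, had 29.7, 27.9 and 16.6 CPM and 23.5, 24.5 and 32.5 CPM in high-yielding and low-yielding Gir, and 29.1, 59.9 and 40.5 CPM and 59.7, 31.5 and 31.0 CPM in Shweta Kapila. Its highest cows were the same pair as for PSMA3, Shweta Kapila high 2 and low 1, and high 3 was also above every Gir cow. The breeds overlapped through high 1, low 2 and low 3. The log2 breed differences were −0.70 ± 0.25 for PSMC6, −0.50 ± 0.18 for PSME1 and −0.46 ± 0.19 for PSMB7 (edgeR adjusted p = 0.404, 0.415 and 0.486). Gir high 3 had the lowest value of the 12 cows in 6 of the 45 genes, among them PSMA3, PSMC6 and PSMB7, and in 7.55% of all genes. That library also had summed erythroid markers of 578 CPM, against 66.7 to 172 CPM in the other 11, with 5 of 11 listed markers past the filter. ALAS2 alone gave 528 CPM of that sum. EPB42 and KLF1 were also highest there, at 4.85 and 5.89 CPM. TFRC and GATA1, at 18.6 and 20.9 CPM, lay within the range of the other cows. The part of erythroid RNA in its values was not tested. The count of 7 for breed was 3 (6.67%) without Gir high 3 or Gir low 3, beside 6.54 and 6.93% of all genes. It was 4 (8.89%) without Gir low 2 or Shweta Kapila low 1, beside 8.20 and 7.12% of all genes. Without Shweta Kapila low 3 it was 13 (28.9%), beside 26.5% of all genes.

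None of the 45 genes separated the breeds without overlap, where 0.603% of all genes did, and none separated the yield classes over both breeds (0.0778%) or in Shweta Kapila (7.21%). In sum 32 of 45 genes had a lower mean in Gir, and the median log2 breed difference was −0.21. On the other side PSMD2, a scaffold subunit of the 19S base, had 147 to 183 CPM in Gir and 112 to 158 CPM in Shweta Kapila (0.19 ± 0.14, edgeR adjusted p = 0.659). PSMD3 and PSMD4 also had higher means in Gir (0.21 ± 0.21 and 0.13 ± 0.18, edgeR adjusted p = 0.749 and 0.818), and lower ones without the 3 large libraries (−0.10 and −0.09). Breed and library size were linked here, since all 3 large libraries were Shweta Kapila. Without them 15 of 45 genes were under an unadjusted p of 0.05 for breed, beside 18.2% of all genes, and none passed an adjusted p of 0.05. In the fit of all 12 cows 6 of 12 T cell, 5 of 8 cytotoxic and 3 of 7 plasma cell markers were under an unadjusted p of 0.05 with Gir lower. Higher means in Gir were found for 10 of 10 B cell, 7 of 7 platelet, 7 of 7 dendritic cell, 7 of 8 neutrophil, 7 of 9 monocyte and 3 of 5 erythroid markers, beside 45.1% of all genes. Of these, 2 monocyte, 1 neutrophil and 1 dendritic cell marker were under that p. Their part in the breed values was not tested.

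Over both breeds 30 of 45 genes had higher means in high-yielding cows, beside 48.5% of all genes, with a median log2 difference of 0.06 beside −0.01 over all genes. Without Shweta Kapila high 1 it was 20 of 45, with a median of −0.03. The 5 of lowest p on that side were PSMA7 (0.31 ± 0.19), PSMD9 (0.31 ± 0.19), PSMB4 (0.25 ± 0.18), PSMC3 (0.20 ± 0.15) and PSMB9 (0.38 ± 0.30), each with an edgeR adjusted p of 0.874. PSMC3, an ATPase of the 19S base, had 119, 102 and 111 CPM against 104, 104 and 108 CPM in Gir, and 149, 104 and 94.9 CPM against 80.3, 93.9 and 104 CPM in Shweta Kapila. Its classes overlapped in both breeds. On the lower side were PSMD6 (−0.22 ± 0.18), PSMD1 (−0.16 ± 0.16), PSMD12 (−0.21 ± 0.24), PSME3 (−0.10 ± 0.14) and PSMD14 (−0.13 ± 0.20), with edgeR adjusted p of 0.874 to 0.887. PSMD1, a scaffold of the 19S base, ran from 81.9 to 90.6 CPM in Gir. In Shweta Kapila it had 95.2, 66.4 and 94.8 CPM in high-yielding and 119, 111 and 76.6 CPM in low-yielding cows (−0.26 ± 0.22, edgeR adjusted p = 0.684). Without the 3 large libraries PSMD1, PSMD12 and PSMD14 had higher means in the high class (0.0067, 0.19 and 0.29).

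In Gir alone PSMD9, PSMD5, PSMB5, PSMA1 and PSMG2 had the lowest p among genes with higher means in high-yielding cows, at 0.29, 0.23, 0.17, 0.11 and 0.10 on the log2 scale, and among genes with lower means PSMB7, PSME1, PSMA3, PSMB8 and PSMG4, at −0.25, −0.23, −0.20, −0.14 and −0.38. Their edgeR adjusted p was 1. PSMA1 had 102, 75.9 and 73.0 CPM against 75.7, 74.3 and 82.8 CPM there, so that its sign rested on high 1 and was −0.06 without that cow. PSMG4 had 6.68, 10.9 and 6.35 CPM against 17.5, 8.40 and 5.25 CPM, and was 0.23 without low 1.

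**Figure D3:**
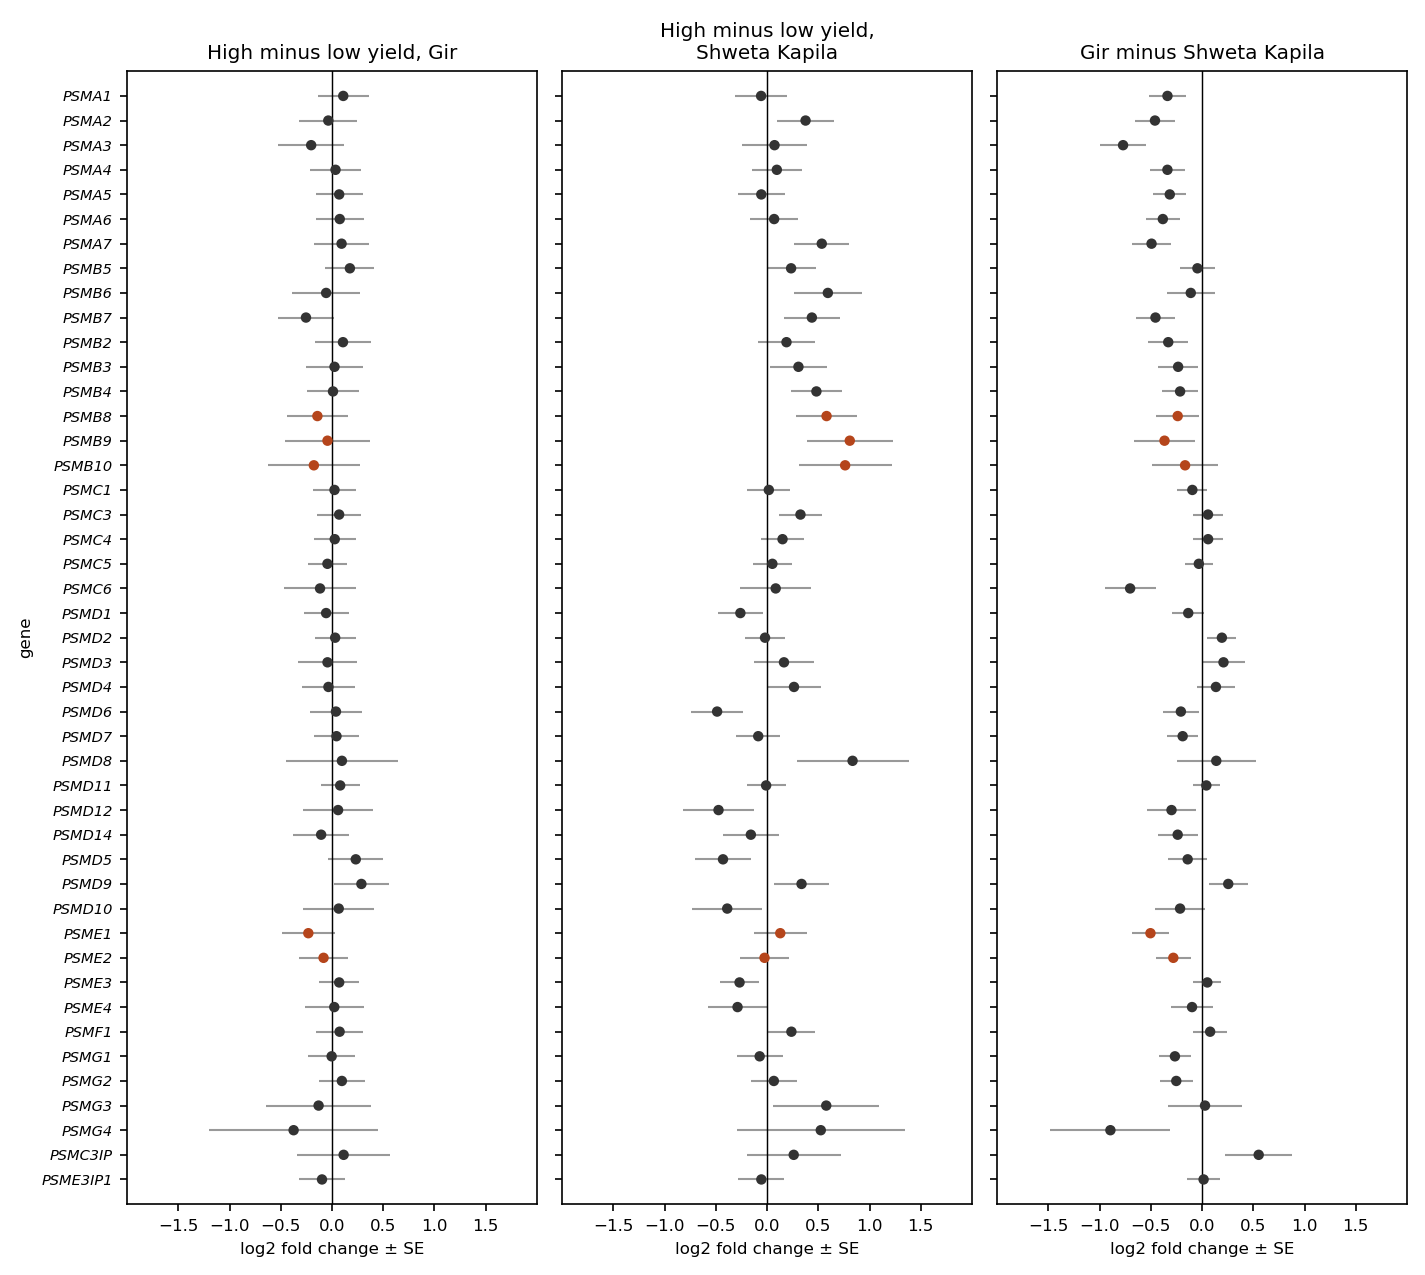
Log2 fold changes ± SE from edgeR (horizontal axes) of 45 genes for high minus low yield in Gir and in Shweta Kapila and for Gir minus Shweta Kapila, ordered by role. Red points are PSMB8, PSMB9, PSMB10, PSME1 and PSME2. The points of the left panel crowd around 0, PSMD8, PSMB9 and PSMB10 lie farthest from 0 in the middle panel, and all PSMA genes lie left of 0 in the right panel.

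The structural beta subunits PSMB2, PSMB3 and PSMB4 had higher means in the high-yielding class of both breeds, by 0.01 to 0.11 in Gir and 0.19 to 0.48 in Shweta Kapila on the log2 scale. PSMB4 gave the lowest p of the 3 in Shweta Kapila, with 152, 124 and 81.9 CPM against 70.2, 84.7 and 102 CPM (0.48 ± 0.25, edgeR adjusted p = 0.655). The classes overlapped through high 3. PSMB2 was at 148 CPM in Shweta Kapila high 1 and between 58.5 and 87.7 CPM in the other 11 cows. Shweta Kapila high 2 and high 3, at 70.6 and 75.0 CPM, were below all low-yielding cows of the breed, at 83.2 to 87.7 CPM. The higher PSMB2 mean of that class thus rested on high 1.

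The 19S base was the steadiest piece: the highest cow exceeded the lowest by a median of 1.65-fold over its 5 tested ATPases, against 2.20-fold over all 45 genes and 3.20-fold over all genes tested. PSMC5 ran from 136 to 191 CPM and PSMC4 from 68.5 to 113 CPM. PSMC6 stood apart with a 3.60-fold range.

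The 10 tested non-ATPase subunits of the 19S cap split. In Shweta Kapila 3 had higher and 7 lower means in high-yielding cows, with a median of −0.05. PSMD6, a lid subunit, had 71.5, 52.5 and 81.4 CPM in high-yielding and 113, 110 and 65.0 CPM in low-yielding Shweta Kapila (−0.49 ± 0.25, edgeR adjusted p = 0.655), and 62.2 to 76.4 CPM in Gir. PSMD12, another lid subunit, ran from 46.4 to 138 CPM, and its 3 highest cows were the 3 large libraries (−0.47 ± 0.34, edgeR adjusted p = 0.661). PSMD8, a lid subunit too, went the other way, with 34.7, 24.7 and 10.4 CPM against 5.29, 8.05 and 25.8 CPM in Shweta Kapila and 13.9 to 23.6 CPM in Gir. Its 3 lowest cows were the large libraries, and its log2 yield difference of 0.83 ± 0.55 had an edgeR adjusted p of 0.655. PSMD14, the deubiquitinase of the lid, ran from 24.9 to 58.6 CPM, and PSMD4, a ubiquitin receptor, from 71.1 to 156 CPM. PSMD2 and PSMD11 were among the steadier ones, with 1.63-fold and 1.35-fold ranges.

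Assembly chaperones of the 19S base were not uniform either. In Shweta Kapila PSMD5 had 51.5, 46.2 and 51.1 CPM against 86.8, 75.2 and 38.5 CPM (−0.43 ± 0.27), PSMD10 was likewise lower in the high class (−0.39 ± 0.35, though 0.13 among the libraries not over 22 M), and PSMD9 was higher (0.34 ± 0.27), with edgeR adjusted p of 0.655, 0.694 and 0.676. In Gir PSMD9 gave the lowest p of all 45 genes, with 32.5, 25.5 and 27.2 CPM against 23.8, 27.3 and 18.8 CPM (0.29 ± 0.27, edgeR adjusted p = 1). Its classes overlapped. Without the 3 large libraries PSMD5 and PSMD12 took the opposite sign in Shweta Kapila, at 0.34 and 0.32.

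Of the chaperones that assemble the 20S core, PSMG1 and PSMG2, which form a pair, varied by 1.68-fold and 1.62-fold over the 12 cows, and PSMG3 and PSMG4, which form another, by 5.80-fold and 10.3-fold. PSMG4 had 36.3, 18.9 and 5.86 CPM in high-yielding and 3.51, 4.74 and 34.2 CPM in low-yielding Shweta Kapila, and 5.25 to 17.5 CPM in Gir. The 3 large libraries were again the lowest of that breed. High minus low was 0.51 among the large libraries and −0.31 among the others. Its log2 differences were 0.52 ± 0.82 for yield in Shweta Kapila and −0.90 ± 0.59 for breed (edgeR adjusted p = 0.814 and 0.628).

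PSMC3IP and PSME3IP1, the matches by name alone, ran from 1.97 to 7.98 CPM and from 32.5 to 52.0 CPM. PSMC3IP, a meiotic recombination factor, had the lowest p of the genes higher in Gir (0.55 ± 0.32, edgeR adjusted p = 0.599). PSMA8, the alpha subunit of the testis type, had 0 to 28.2 counts per library, the highest in Shweta Kapila low 1. PSMB11, the thymus type that RefSeq places next to PSMB5, had 1 count in Shweta Kapila high 1, 3 in low 1 and 0 in the other 10 libraries. Neither passed the filter.

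**Figure D4:**
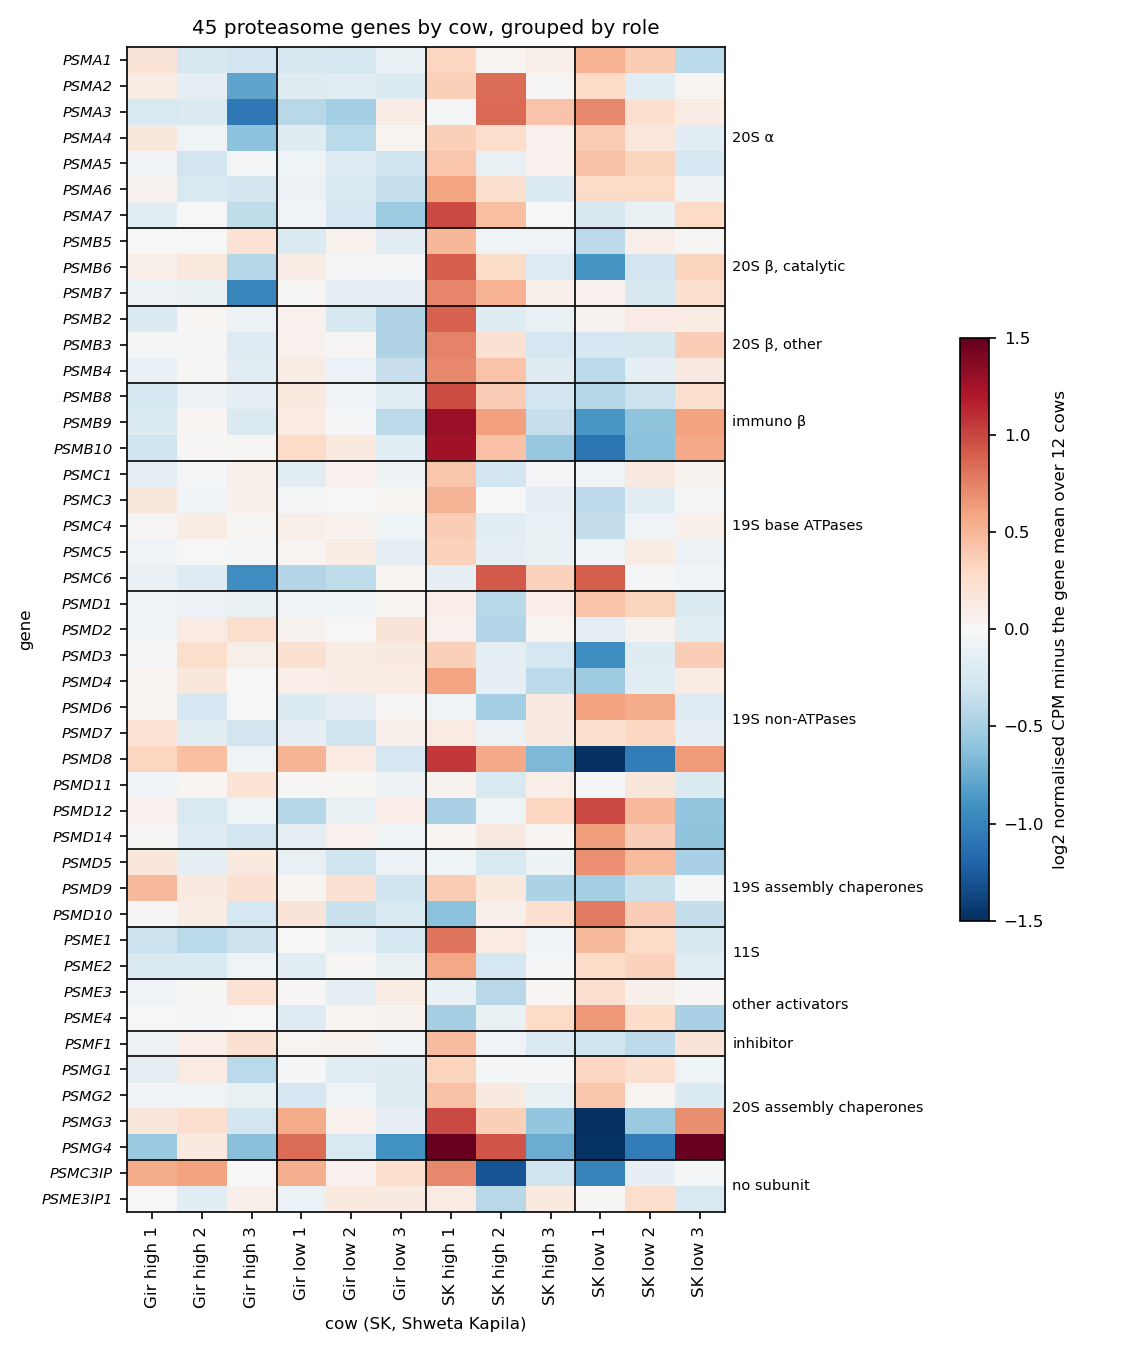
Log2 normalised CPM of 45 genes (rows, grouped by role) in 12 cows (columns), minus the mean of each gene over the cows, with lines between roles and between groups. Red is above and blue below that mean, and PSMD8, PSMG3 and PSMG4 pass the end of the colour scale at 1.5. Shweta Kapila high 1 is red for most of the 20S genes, and Shweta Kapila low 1 and 2 are blue for PSMB8, PSMB9 and PSMB10 and red for PSMD6, PSMD12 and PSMD5.

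Cows of a breed differed more in Shweta Kapila. The median SD of log2 CPM over the 6 cows was 0.16 in Gir and 0.36 in Shweta Kapila for the 45 genes, 41 of which (91.1%) were wider in Shweta Kapila, as were 81.7% of all genes, with medians of 0.30 and 0.56. For PSMB8, PSMB9 and PSMB10 the medians were 0.19 and 0.85. Shweta Kapila high 1 was the highest of the 12 cows for 25 of the 45 genes (55.6%) and for 19.6% of all genes. Low 1 was the lowest for 14 of them (31.1%) and for 24.4% of all genes, and the highest for 11.

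The split of Shweta Kapila by library size was uneven over the 45 genes. All 3 libraries over 22 M were below the other 3 for 16 of 45 genes (35.6%, and 24.6% of all genes) and above them for 6 (13.3%, and 21.4% of all genes). The lower ones were PSMB8, PSMB9 and PSMB10, PSMB3, PSMB4, PSMB6 and PSMB7, PSMA7, the 19S genes PSMC3, PSMD3, PSMD4, PSMD8 and PSMD9, PSMG3, PSMG4 and PSMF1. The higher ones were PSMD6, PSMD7, PSMD10, PSMD12, PSME3 and PSME4. Within both size classes the yield difference had the same sign in 18 of 45 genes, higher in the high class for 16 and lower for 2, PSMD6 and PSME3. The same count was not taken over all genes, so these numbers have no background share. All alpha ring genes but PSMA7 had opposite signs in the size classes.

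Genes around the proteasome gave few values under an unadjusted p of 0.05 and no adjusted call, and none for yield in Gir. Of 12 other proteasome parts and assembly genes, UCHL5, a deubiquitinase of the 19S cap, was lower in high-yielding Shweta Kapila (−0.90 ± 0.39, edgeR adjusted p = 0.655). For breed SEM1, a small lid subunit, and POMP, the maturation factor of the 20S core, were lower in Gir (−0.67 ± 0.24 and −0.51 ± 0.19), and PAAF1, a 19S assembly factor, was higher (0.53 ± 0.19), with edgeR adjusted p of 0.401, 0.427 and 0.404. POMP had 44.1 to 78.7 CPM in Gir and 71.2 to 108 CPM in Shweta Kapila. PAAF1 had 18.4 to 21.6 CPM in Gir and 7.73 to 16.9 CPM in Shweta Kapila, with no overlap between breeds, as for 0.603% of all genes. Of 14 ubiquitin genes and shuttle factors 1 was under that p for yield in Shweta Kapila (RAD23B, lower) and 1 for breed (RPS27A, lower in Gir). None of 6 regulators of proteasome gene transcription was in either comparison. NFE2L2, a transcription factor of the oxidative stress response, was for the difference between yield effects (1.01 ± 0.46, edgeR adjusted p = 0.955).

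Of 11 genes on the route from interferon gamma to the immunoproteasome, NLRC5, the transactivator of class I genes, was under an unadjusted p of 0.05 in Shweta Kapila. It had 658, 583 and 564 CPM in high-yielding and 409, 392 and 422 CPM in low-yielding Shweta Kapila, with no overlap, and 424 to 590 CPM in Gir (0.56 ± 0.19, edgeR adjusted p = 0.655). Its large and other libraries overlapped. TAP1, a subunit of the peptide transporter that lies between PSMB8 and PSMB9, had 409, 401 and 360 CPM against 276, 286 and 380 CPM there. Its classes overlapped, and its 3 large libraries were the lower ones, as for PSMB8. For breed 1 of the 11 was under that p, IFNGR2, a chain of the interferon gamma receptor, which was higher in Gir (0.47 ± 0.17, edgeR adjusted p = 0.415). Among 11 class I genes none was under that p for yield, and B2M and CALR were lower in Gir (−0.45 ± 0.19 and −0.36 ± 0.15, edgeR adjusted p = 0.487 for both).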

How the data were processed

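Blood RNA of 12 cows was sequenced after removal of ribosomal RNA with a strand-marking kit, per the labels' protocols. The authors deposited expected counts, per gene and cow, not scaled by the authors as far as the library totals show, and 57.0% of them are not whole (tolerance 1e-06). The submitters' processing notes name Trimmomatic and FastQC. Aligner, counting program, strand setting and genome build were not given in the sources used here, so reads of overlapping or near-identical genes may be split in unknown ways. Symbols came by identifier from a RefSeq table (assembly NIAB-ARS_B.indTharparkar_mat_pri_1.0), which matched 22754 of 26229 identifiers and was used for names and neighbours only. All value columns of the table were used.

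Expected counts were rounded and fitted in R 4.3.3 with edgeR 4.0.16: filterByExpr by group (minimum count 10, minimum total 15), which left 15420 genes, TMM scaling, and robust quasi-likelihood fitting of 4 group means to the 12 libraries. Tests were 2-sided with Benjamini-Hochberg adjustment over 15420 genes and a threshold of 0.05. The fit was tested on simulated data. The 6 comparisons were yield in each breed, the mean of both yield differences, their difference (Gir minus Shweta Kapila), breed, and any difference among the 4 groups. The filter's 10 counts correspond to 0.704 CPM in the smallest and 0.368 CPM in the largest library. Measures over several genes used log2 CPM with a prior count of 2 and were not tested. Alternatives included DESeq2 1.42.0, limma 3.58.1 (voom with sample weights), other scalings and filters, thinned counts, covariates and leaving out each cow. Plots came from matplotlib 3.10.9 and NumPy 2.4.6 in Python 3.11.15, and correlations from R.

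No pair of libraries in a group looked like a copy (chi-square of 32.5 to 364 per degree of freedom). Named genes were PSMB8, PSMB9, PSMB10, PSME1, PSME2, PSMB5, PSMB6, PSMB7, PSME3, PSME4 and PSMF1, with values for each cow, the 5 genes of lowest p on each side of a comparison, and at most 3 of lowest p from each other list. Other genes given with values, TAP1 included, were chosen after their values were seen. Members and lists were chosen with earlier results of these data known.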

Additional observations from a re-analysis of the deposited data

Results flagged for a closer look

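Within each breed, taken as 1 group of 6 cows, the cow farthest out was compared with the rest by its gap to the nearest cow divided by the whole range, which is extreme above Dixon's critical value for 6 cows. Of 136 such tests over genes and mean measures 10 (7.35%) passed, where chance gives about 5%.

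Gir high 3 was low for PSMB7, with 26.4 CPM against 47.5 to 52.5 CPM in the other 5 Gir cows (gap share 0.855), for PSMB6, with 38.7 against 50.8 to 57.9 CPM (0.678), and for PSMA2, with 16 against 23.8 to 29.8 CPM (0.638). The mean log2 CPM of PSMB5, PSMB6 and PSMB7 was likewise low there, at 4.90 against 5.19 to 5.31 (0.709). Gir high 1 was high for PSMA1, with 102 CPM against 73.0 to 82.8 CPM (0.626). Gir low 1 was low for PSME4, with 39.4 CPM against 44.2 to 47.0 CPM (0.654), and high for the log2 ratio of PSME1 to PSME2, at 0.84 against 0.41 to 0.55 (0.671).

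Shweta Kapila high 1 was high for PSMB2, with 148 CPM against 70.6 to 87.7 CPM in the other 5 Shweta Kapila cows (0.706), for the mean log2 CPM of the 19S base ATPases, at 6.79 against 6.49 to 6.55 (0.798), and for the mean over all 45 genes, at 6.37 against 5.85 to 6.01 (0.704).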

How the results depend on the processing

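No alternative but limma-voom with sample weights gave a proteasome gene an adjusted p under 0.05. There the calls were 12 for yield in Shweta Kapila, 6 for breed, 4 for the difference between yield effects, 2 for yield over both breeds, 13 across the 4 groups and none for yield in Gir, where the shares over all genes were 25.3, 16.6, 8.48, 8.15, 30.2 and 0.00649%. Its counts at an unadjusted p under 0.05 were 20, 18, 13, 12 and 23 in that order, beside 39.9, 35.8, 30.1, 30.8 and 47.5% of all genes.

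Other counts at an unadjusted p under 0.05 that differed by over 1.5 times from the 0 of yield in Shweta Kapila were 1 without a filter on low counts, 7 with the log2 library total as covariate, 1 with the share of counts on unnamed short identifiers as covariate and 2 without the 3 libraries over 22 M (beside 5.60, 12.9, 7.57 and 10.5% of all genes). Without these libraries the low class of Shweta Kapila is 1 cow, low 3, assumed to vary like the cows of the other groups. For yield over both breeds (0) they were 3 and 1 under those covariates, beside 10.2 and 6.17% of all genes. For the difference between yield effects (0), the fit without the 3 large libraries aside, it was 1 without the filter, beside 3.58% of all genes. For breed (7) they were 13 and 12 under the covariates, 14 with a term for libraries over 22 M and 15 without those libraries, beside 13.5, 15.2, 17.8 and 18.2% of all genes (9.57% in the reported fit). Across the 4 groups (2) they were 1 with upper-quartile scaling, 9 and 6 under the covariates, 8 with the term, 11 without the large libraries and 0 with the replicate block.

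Leaving out each cow in turn gave 0 adjusted calls among the 45 genes in all comparisons. The share over all genes was at most 2.84%, for breed without Shweta Kapila low 3. Unadjusted counts ran from 0 to 14 for yield in Shweta Kapila, 0 to 6 for yield over both breeds, 0 to 10 for the difference between yield effects, 3 to 13 for breed and 0 to 14 across the 4 groups, in each case highest without Shweta Kapila low 3. The shares over all genes without low 3 were 31.7, 20.7, 19.1, 26.5 and 28.1% in that order. Without Shweta Kapila high 3 the counts were 8, 3, 4, 7 and 6, beside 18.8, 9.89, 9.70, 9.04 and 10.7% of all genes. The median log2 yield difference in Shweta Kapila (0.10) ran from −0.078, without Shweta Kapila high 1, to 0.22, and was 0.28 without the 3 large libraries. Without these libraries PSMB8, PSMB9 and PSMB10 against PSMB5, PSMB6 and PSMB7 differed by −0.29 between Gir and Shweta Kapila (0.05 with them), the trio against the 28 constitutive subunits by −0.51 (0.03), and PSME1 and PSME2 against those subunits by 0.26 between yield classes of Shweta Kapila (−0.11).

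Replicate numbers did not pair the cows: of 18 pairs with a shared number 3 had a correlation of deviations over 0.1, with a range from −0.56 to 0.34. The replicate block gave 0 adjusted calls among the 45 genes, beside at most 0.0195% of all genes. For breed 7 of the 45 were under an unadjusted p of 0.05 with it, beside 8.00% of all genes.

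Named log2 differences, all short of the adjusted threshold, changed sign as follows. With limma-voom they were PSMB10 (0.14) and PSMB6 (0.0039) for breed and PSMB5 (−0.0077) and PSME1 (−0.079) for yield in Shweta Kapila. With the term for large libraries, chosen after the data were seen, they were PSMD3 (−0.077), PSMD4 (−0.12), PSMD9 (−0.00650), PSME4 (0.33) and PSMF1 (−0.15) for breed and PSME2 (0.032) and PSME4 (0.0046) for yield in Shweta Kapila. Without the large libraries PSMD3 (−0.10), PSMD4 (−0.094), PSME4 (0.37) and PSMF1 (−0.14) did so for breed, PSMD1 (0.072), PSMD12 (0.32), PSMD5 (0.34), PSME2 (0.38) and PSME4 (0.19) for yield in Shweta Kapila, and PSMD1 (0.00675), PSMD12 (0.19) and PSMD14 (0.29) for yield over both breeds. With the library total as covariate PSMD4 (−0.00310), PSME4 (0.19) and PSMF1 (−0.0260) did so for breed and PSMB9 (0.072), PSME4 (−0.033) and PSMG4 (0.060) for yield in Gir. With the share of short identifiers PSME4 (0.069) did so for breed, PSMB9 (0.037) and PSME4 (−0.019) for yield in Gir, PSMB9 (−0.0074), PSMD12 (0.18) and PSMD14 (0.092) for yield over both breeds, and for yield in Shweta Kapila PSMB10 (−0.13), PSMB9 (−0.0516), PSMD1 (0.041), PSMD12 (0.34), PSMD5 (0.10), PSME2 (0.11), PSME4 (0.28) and PSMF1 (−0.0516).

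Over the fits without 1 cow the sign changed for breed in PSMB10 (−0.34 to 0.15), PSMB5 (−0.10 to 0.065), PSMB6 (−0.22 to 0.071), PSME3 (−0.0076 to 0.10) and PSME4 (−0.22 to 0.046), and for yield in Shweta Kapila in PSME1 (−0.16 to 0.29) and PSME2 (−0.30 to 0.15). In Gir it changed in PSMA1 (−0.060 to 0.20), PSMA3 (−0.34 to 0.031), PSMB6 (−0.17 to 0.10), PSMB9 (−0.18 to 0.070), PSME3 (−0.014 to 0.13), PSME4 (−0.054 to 0.069), PSMF1 (−0.00042 to 0.15) and PSMG4 (−0.69 to 0.23). PSMB8, PSMB9 and PSMB10 against PSMB5, PSMB6 and PSMB7 ran from −0.18 to 0.083 for yield in Gir and from −0.070 to 0.15 for breed, the trio against the 28 constitutive subunits from −0.13 to 0.23 for breed, and PSME1 and PSME2 against those subunits from −0.28 to 0.0065 for yield in Shweta Kapila. The cause of these changes was not tested. With 3 cows a group most 2-fold changes were missed on simulated counts, so a proteasome gene changed 2-fold may go uncalled.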
